A study of Mus musculus with 6 samples.

Results

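The metalloproteinases that cut extracellular matrix and shed cell-surface proteins, together with their tissue inhibitors, were followed in mouse lung endothelial cells. Members were all protein-coding genes whose symbol begins with Mmp, Adam, Adamts, Adamtsl or Timp and a number. This gave 55 genes of the 18956 in the table, of which 14266 are protein-coding. They comprised 11 secreted matrix metalloproteinases (MMPs), 7 membrane MMPs, 18 ADAMs, 11 ADAMTS proteases, 5 ADAMTS-like proteins and 3 tissue inhibitors of metalloproteinases (TIMPs). Bulk RNA sequencing covered 6 libraries in 2 groups. The 3 WT libraries were labelled wild type and Cre-negative, and the 3 CSE-KO libraries were labelled as Cre-positive with a knockout of CSE (cystathionine gamma-lyase, the product of Cth). The sources used here name no age, strain, Cre driver or deleted exon. They also do not say whether replicates came from separate animals or cultures, so the p-values cover variation among these libraries, which may be technical.

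MMPs are zinc-dependent endopeptidases made as inactive proforms, and they digest collagens, elastin, gelatin and other matrix proteins. Secreted MMPs act in the space around the cell, while membrane MMPs act at its surface and can activate secreted ones. ADAMs are membrane proteases best known for shedding the outer parts of receptors, adhesion molecules and growth factors, ADAMTS enzymes are secreted and cut proteoglycans, procollagens and other matrix proteins, and ADAMTS-like proteins share their accessory domains without the protease. TIMPs bind active MMPs and, in part, ADAMs and ADAMTS enzymes, and in endothelium the balance of these proteins bears on matrix turnover and sprouting.

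Values are normalized counts as deposited, and those of a gene are given in the order of libraries 1, 2 and 3. A gene was said to rise or fall where it was higher or lower in the libraries labelled CSE-KO with an adjusted p under 0.05 (limma on log2(value + 0.5), Benjamini-Hochberg over all genes tested). Folds are ratios of group means. Library totals were 6028772 to 6052275 in WT and 5698922 to 5765008 in CSE-KO. An index of the spread between pairs of libraries, at 1 where it equals counting noise, was 0.698 to 0.751 in WT over all genes and 0.909 to 1.03 in genes with few reads per base. For CSE-KO 2 and 3 it was 0.862 over all genes and 1.11 in those genes, which was above counting noise (chi-square p = 0.00108), and with CSE-KO 1 it was 1.64 and 1.93. An index under 1 over all genes does not show that libraries differ by counting noise alone, so the libraries were kept apart. With WT counted as 1 sample and CSE-KO 2 and 3 as another, 16 members rose and 18 fell. Cth itself had 29, 27 and 26 in WT beside 49, 43 and 63 in CSE-KO, against the direction of the label. Without knowledge of the deleted exons, this does not check the label.

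Endothelial markers were high in all 6 libraries, with their 10 genes adding up to 16511 to 16822 in WT and 11174 to 11832 in CSE-KO. Of the 10, 9 fell, beside 39% of all genes tested. The falls were uneven, with log2 changes from -0.08 for Cdh5 to -1.57 and a median of -0.68 over the 10. Emcn did not pass (0.02, adjusted p = 0.47), and Cdh5 and Emcn were the least changed of the 10. Lymphatic endothelial markers were also high, adding up to 14886 to 15172 in WT and 5513 to 7510 in CSE-KO. Of the 6, 5 were lower and only Pdpn was higher, with a median log2 change of -1.31 over the list. In bulk RNA, fewer cells of a type and less RNA per cell cannot be told apart.

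Of the secreted MMP genes that lie together on chromosome 9, 5 rose. Their promoters are shown because the genes are neighbours on 1 strand and moved together. Each run holds 150 bases before and 30 bases from the annotated start, taken from RefSeq on GRCm38.p6, plus strand. The coordinates are chr9:7272364-7272543 for Mmp13, chr9:7347224-7347403 for Mmp12 (the second of 2 annotated starts), chr9:7445672-7445851 for Mmp3, chr9:7502192-7502371 for Mmp10 and chr9:7558279-7558458 for Mmp8. Capitals mark the AP-1 motif TGANTCA and the TATA motif TATAAA on either strand. The second Mmp12 start is shown because its window holds the AP-1 motif and that of the first does not.
Mmp13: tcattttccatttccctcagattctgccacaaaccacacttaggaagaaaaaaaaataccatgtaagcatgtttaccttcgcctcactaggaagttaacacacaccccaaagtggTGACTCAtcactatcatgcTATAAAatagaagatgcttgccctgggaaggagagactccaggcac
Mmp12: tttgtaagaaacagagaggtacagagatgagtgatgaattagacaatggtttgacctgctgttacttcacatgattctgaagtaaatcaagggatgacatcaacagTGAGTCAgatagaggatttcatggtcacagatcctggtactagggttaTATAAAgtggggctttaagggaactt
Mmp3: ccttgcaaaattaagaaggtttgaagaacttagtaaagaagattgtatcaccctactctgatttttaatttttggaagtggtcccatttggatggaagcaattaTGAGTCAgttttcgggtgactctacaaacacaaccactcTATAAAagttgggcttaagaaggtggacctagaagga
Mmp10: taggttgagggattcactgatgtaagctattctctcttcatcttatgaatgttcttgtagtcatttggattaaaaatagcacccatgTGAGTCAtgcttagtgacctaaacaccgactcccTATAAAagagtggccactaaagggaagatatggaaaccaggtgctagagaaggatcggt
Mmp8: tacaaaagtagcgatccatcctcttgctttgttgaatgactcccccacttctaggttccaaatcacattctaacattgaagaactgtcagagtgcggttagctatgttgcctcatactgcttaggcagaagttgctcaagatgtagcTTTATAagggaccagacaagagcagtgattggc

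The AP-1 motif is the letter sequence bound by Fos and Jun dimers, and the TATA motif marks one class of core promoter. In the window of 250 bases before to 50 after the start, TGANTCA began 35 bases upstream in Mmp13, 44 in Mmp12, 46 in Mmp3 and 63 in Mmp10. The window of Mmp8 held none. Of 32851 RefSeq promoters of the same length, 2565 (7.81%) held the AP-1 motif. The 34 members with a RefSeq promoter had 38 promoters, and a member was counted if any of its promoters held a motif. Shares of members and of single promoters are therefore unlike measures. Counted so, 5 of the 34 members held the AP-1 motif. The fifth was Adam19, which fell, with the motif 131 bases upstream. TATAAA was in 4473 promoters (13.6%) and in 7 of the 34 members, namely the 5 chromosome 9 genes above, Adamts1 and Adamtsl2. The window of the first Mmp12 start held neither motif, and nor did that of Mmp27, the cluster gene not shown. A match describes the letters and not a site in use.

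Of the 55 genes, 46 reached 10 or more in 3 or more libraries and were tested. Of these, 20 rose and 23 fell, while 77.4% of all 13750 genes tested were called (38.3% higher and 39% lower). The members' share of calls is therefore read against a contrast in which most genes were called. Changes of at least 2-fold were called in 28 members, 12 higher and 16 lower, against 22.2% of all genes tested (9.93% higher and 12.3% lower). For 11 of the 46 the threshold was met in 1 group only, as for 785 of all 13750 genes tested. In these the filter fixed the direction and kept the groups from overlapping. The counts of members here include them, and of the 11 only Mmp17 was not called. Among the 24 members with a mean of at least 100, 6 rose and 17 fell. Of all 9718 genes tested at that level, 3886 rose and 4123 fell. Changes of at least 2-fold were called in 13 of the 24, against 13.9% of all genes at that level. The median log2 change of those 24 was -0.75, beside -0.01 over all genes of that level. Over the 46 tested members the median was -0.24, beside 0.00 over all genes tested. WT and CSE-KO values did not overlap in 42 of the 46, against 80.4% of all genes tested.

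By class, 7 of the 10 secreted MMPs tested rose and 3 fell, with 4 of the rises in genes that met the threshold in CSE-KO alone. Membrane MMPs had 1 higher, 2 lower and 2 that did not pass. ADAMs had 7 higher, 5 lower and 1 that did not pass. In the ADAMTS class 8 of 11 fell, all 8 by at least 2-fold, with Adamts15 passing the filter through WT alone. Of the 4 ADAMTS-like genes tested, 3 fell. Among TIMPs 1 rose and 2 fell. Over all genes tested, 38.3% rose, 39% fell and 12.3% fell by at least 2-fold. The threshold was met in 1 group only for 1 membrane MMP, 4 ADAMs, 1 ADAMTS and 1 ADAMTS-like gene as well. Differences between classes were not tested.

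**Figure D1:**
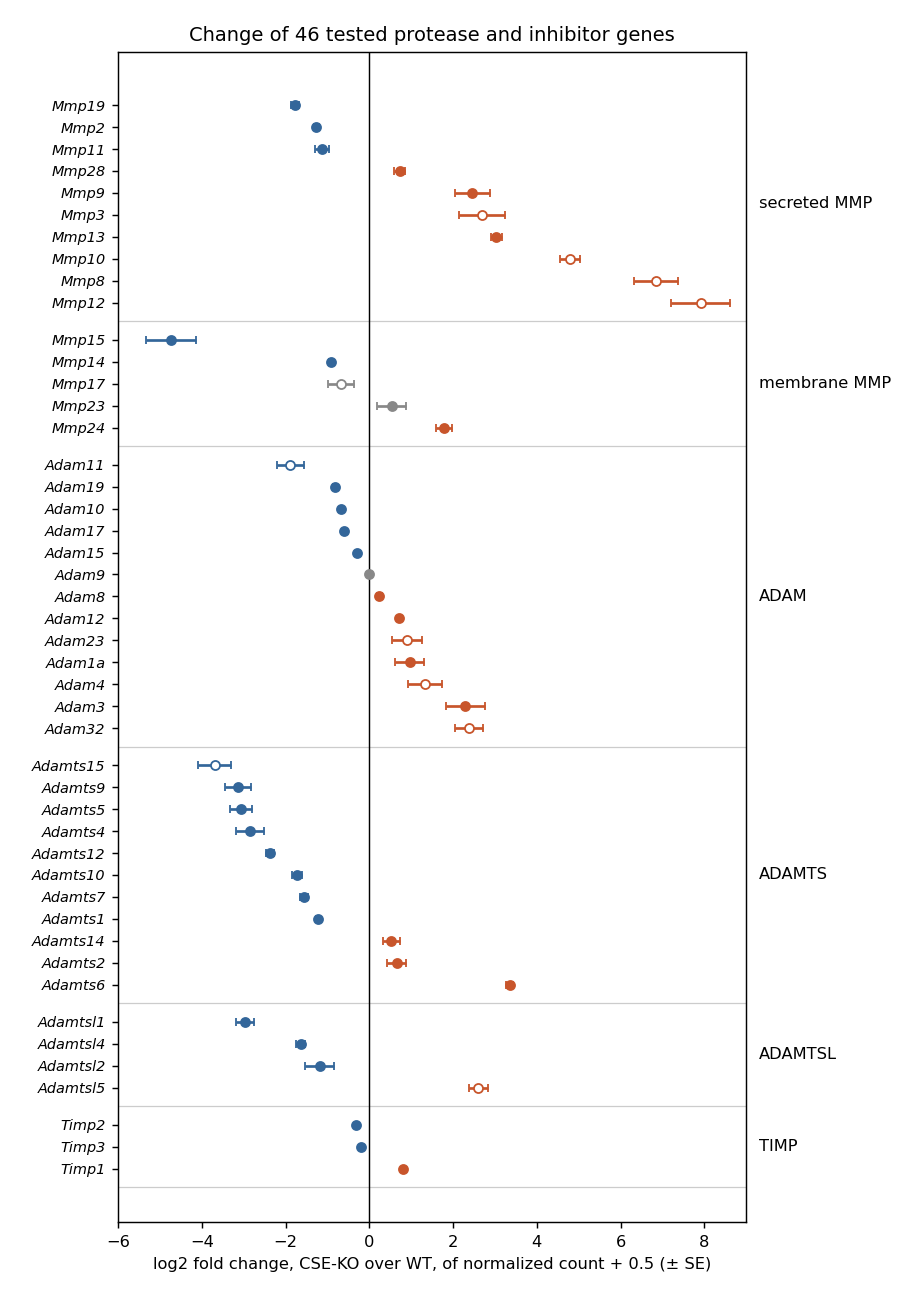
Log2 fold change (CSE-KO over WT, with its standard error) of the 46 tested members, grouped by class; orange points rose, blue points fell, grey points did not pass, and open symbols passed the filter on low values through 1 group only. The secreted MMPs on chromosome 9 sit far to the right and most ADAMTS points sit left of 0; the places of Mmp12, Mmp8 and Adamts15 depend on the pseudocount, because a group mean was under 3.

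Mmp12, Mmp10 and Mmp8 of the chromosome 9 cluster went from values of at most 4 in WT to values of at least 90 in CSE-KO, and Mmp13 and Mmp3 rose too. Of the 5 cluster genes that rose, 4 had passed the filter through CSE-KO alone, so their direction was fixed by it. Mmp13 encodes collagenase-3, an enzyme that cuts fibrillar collagen (chromosome 9, 7272514 to 7283331, plus strand). Its values were 37, 30 and 29 in WT and 230, 286 and 277 in CSE-KO. It was the one cluster gene with values near 30 in every WT library, and the groups lay far apart, at 32.0 ± 4.36 and 264 ± 30.1 (SD, n = 3), a difference of 8.26-fold (adjusted p = 4.8e-09).

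Mmp12, the macrophage elastase, had normalized counts of 3, 0 and 1 in the WT libraries, and CSE-KO 1 to 3 held 305, 364 and 325. Mmp8, the collagenase first described in neutrophils, showed 1, 0 and 2 beside 133, 146 and 145. WT values of both genes were at the floor of the measurement, so no fold is given, and every CSE-KO library was over 100 (adjusted p = 0.00012 for Mmp12 and 2.4e-06 for Mmp8). Mmp10 encodes stromelysin-2, which cuts proteoglycans and fibronectin and activates other MMPs. It had 3, 3 and 4 in WT beside 90, 93 and 138 in CSE-KO. The means of 3.33 ± 0.58 and 107 ± 26.9 differed 32.1-fold (adjusted p = 1.9e-08), with a WT mean close to the lowest for which a fold is given.

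Mmp3, stromelysin-1, lies between Mmp12 and Mmp10 and was much lower than both in CSE-KO. Its values were 4, 1 and 4 in WT and 29, 10 and 26 in CSE-KO, a 7.22-fold difference of means (adjusted p = 0.00095). CSE-KO 2 was the lowest of its group and still above every WT library. Mmp27, at the end of the cluster, stayed under the filter with 0 in all WT libraries and 2, 4 and 1 in CSE-KO. Mmp1a, a collagenase gene in the same row, is annotated as a polymorphic pseudogene in the table and is no member. It was at 3, 1 and 2 in WT and 1, 0 and 1 in CSE-KO, so this gene between Mmp3 and Mmp10 did not share the levels of its neighbours.

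**Figure D2:**
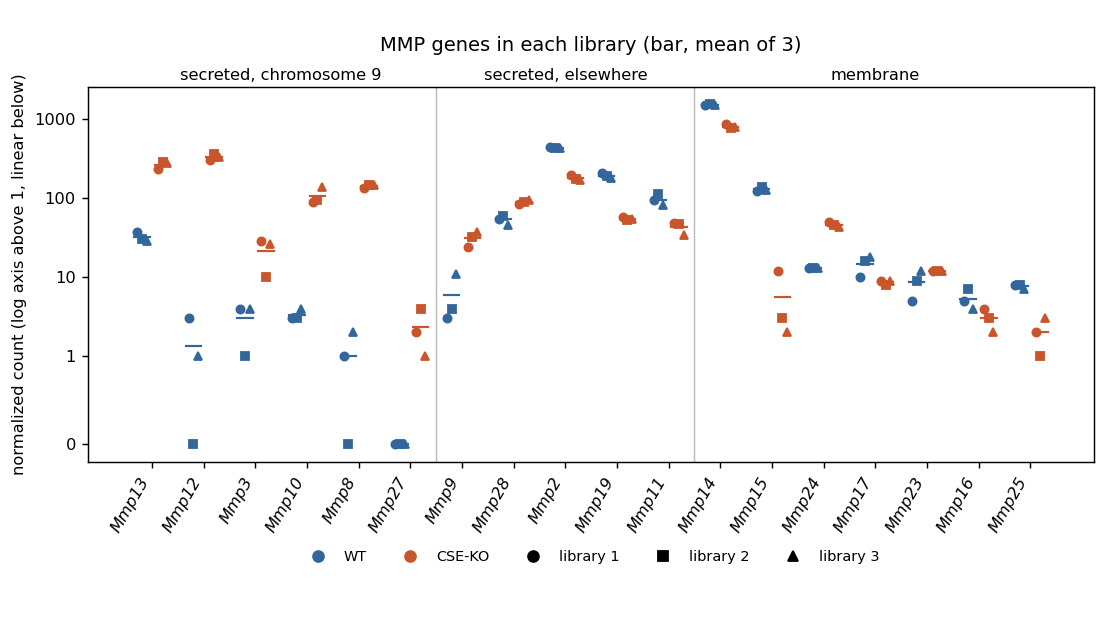
Normalized counts of MMP genes in each library (axis logarithmic above 1 and linear below), WT in blue and CSE-KO in orange, symbol shape giving the library and bars the group means. The chromosome 9 genes are near the bottom of the scale in WT and up to 364 in CSE-KO, while Mmp2, Mmp14 and Mmp15 are lower in CSE-KO.

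The cluster genes all lie on the plus strand. From the start of Mmp13 to the other starts the distance was 71.9 kb to Mmp12, 173 kb to Mmp3, 230 kb to Mmp10, 286 kb to Mmp8 and 299 kb to Mmp27. Dcun1d5, a neddylation factor whose start lies 88.0 kb below that of Mmp13, was at 407, 388 and 394 in WT and 497, 502 and 509 in CSE-KO (log2 change 0.34, adjusted p = 7.7e-06). Dync2h1, a motor protein of cilia transcribed away from the adjoining start of Dcun1d5, did not pass (-0.13, adjusted p = 0.16). On the other flank Tmem123, with a start 492 kb from that of Mmp13, fell by 0.47 on the log2 scale (adjusted p = 4.7e-07), and Birc2, Birc3 and Yap1 beyond it fell by 0.22, 0.37 and 0.15. Cfap300 and Cep126, farther along, rose by 0.79 and 1.33. The log2 rises of the tested cluster genes, from 2.69 to 7.91, lay above those of every tested neighbour within this window, with the sizes for Mmp12 and Mmp8 set in part by the pseudocount. Mmp12, Mmp3, Mmp10 and Mmp8 had passed the filter through CSE-KO alone, so this contrast with the neighbours was set in part by the filter.

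**Figure D3:**
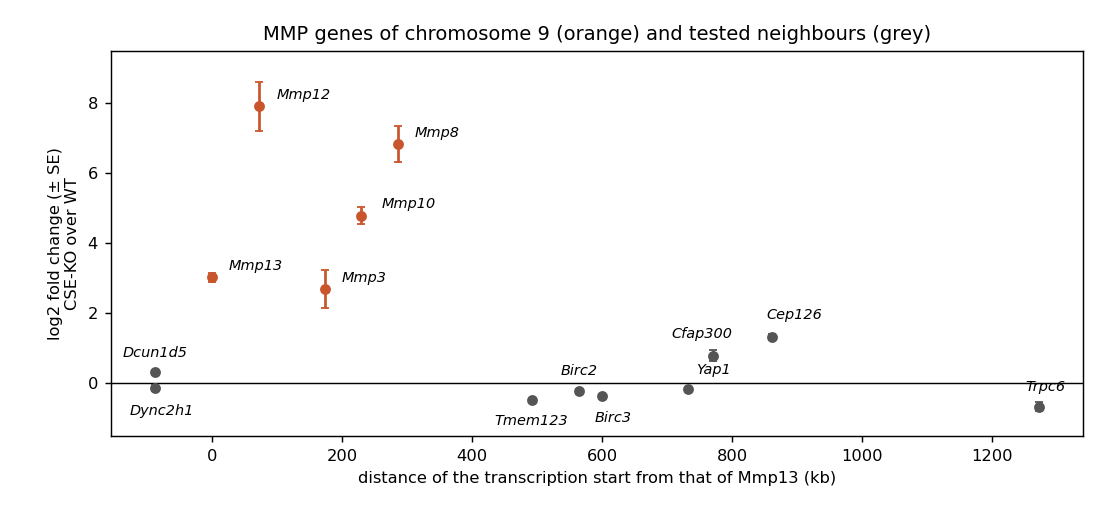
Log2 fold change of genes (CSE-KO over WT, with its standard error) against the distance of their transcription start from that of Mmp13 in kb, for the MMP cluster of chromosome 9 and its neighbours. The 5 tested MMP genes lie between 2.69 and 7.91, and the flanking genes lie between -0.67 and 1.33. Of the 5 MMP genes, 4 passed the filter through CSE-KO alone.

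Macrophage markers were higher in the same libraries. Of 9 tested, 7 rose and 1 fell, beside 38.3% higher and 39% lower over all genes tested. Of these 9, 5 had passed the filter through CSE-KO alone, so their direction was fixed by it. The 10 listed genes added up to 1020 to 1061 in WT and 1276 to 1437 in CSE-KO. Adgre1, Ptprc and Marco, which mark macrophages or all leukocytes, were at 0 in every WT library, with Adgre1 at 36, 62 and 56 in CSE-KO. Mpeg1, a pore-forming protein of phagocytes, had 6, 7 and 9 beside 173, 282 and 231. Lyz2, a lysozyme, had 23, 33 and 37 beside 408, 466 and 439. Cd14 fell by 1.74 on the log2 scale, and Mrc1 did not pass. Of the 10 genes on the neutrophil list, only S100a8 and S100a9 were present in the deposited values. Together they added up to 1 to 3 in WT and 13 to 23 in CSE-KO. S100a8 had 1, 2 and 3 beside 19, 23 and 13 and had passed the filter through CSE-KO alone. S100a9 was under the filter, with 0 in each WT library and 3, 0 and 0 in CSE-KO. Fibroblast and mural markers added up to 1954 to 2037 in WT and 2500 to 2862 in CSE-KO, with 3 higher and 2 lower. Of the 8 tested, 1 had passed the filter through WT alone. Of the epithelial and mesothelial markers Msln and Upk3b rose, Msln with 1, 4 and 3 beside 52, 51 and 60. Both had passed the filter through CSE-KO alone. The 5 listed genes added up to 254 to 301 in WT and 336 to 365 in CSE-KO. The part of these cells in the rise of the MMP genes was not tested.

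Of the other secreted MMPs, those most abundant in WT fell. Mmp2, gelatinase A, which degrades basement-membrane collagen (chromosome 8, 92827291 to 92853420, plus strand), was at 447, 424 and 426 in WT and 193, 175 and 169 in CSE-KO. The groups of 432 ± 12.7 and 179 ± 12.5 did not overlap, and the difference was 2.42-fold (adjusted p = 1.1e-08). Mmp19, a broadly expressed MMP, had 204, 189 and 178 beside 57, 53 and 55, a 3.46-fold fall (adjusted p = 2.3e-08). Mmp11, stromelysin-3, which is activated inside the cell by furin, had 93, 112 and 81 beside 48, 47 and 34, a 2.22-fold fall (adjusted p = 8.4e-05). All CSE-KO values of these 3 genes lay under all WT values.

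Mmp9, gelatinase B, an enzyme of migrating leukocytes and of activated endothelium, went the other way from gelatinase A. It was at 3, 4 and 11 in WT and 24, 32 and 37 in CSE-KO, a 5.17-fold rise (adjusted p = 0.00031). WT 3 was well above WT 1 and WT 2, though under every CSE-KO library. Mmp28, epilysin, rose 1.65-fold from 55, 60 and 46 to 83, 88 and 94 (adjusted p = 0.0004).

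Membrane MMPs were dominated by Mmp14, and its level fell. Mmp14 encodes the membrane-type MMP that activates the Mmp2 proform together with Timp2 and cleaves collagen at the cell surface (chromosome 14, 54431612 to 54445364, plus strand). It had 1518, 1531 and 1489 in WT and 855, 762 and 778 in CSE-KO. The gap between groups was many times the spread within them, and the fall was 1.89-fold (adjusted p = 1e-08). Per exonic kilobase Mmp14 made up 88.0% of membrane MMP expression in WT and 88.1% in CSE-KO.

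Mmp15, a related membrane-type MMP (chromosome 8, 95352268 to 95375080, plus strand), was nearly lost. Its values were 122, 137 and 125 in WT and 12, 3 and 2 in CSE-KO. The means were 128 ± 7.94 and 5.67 ± 5.51, a 22.6-fold difference (log2 change -4.75, SE 0.60, adjusted p = 0.00044), with CSE-KO 1 the highest of its group. Without CSE-KO 1 the log2 change of Mmp15 was -5.44, and with WT as 1 sample and CSE-KO 2 and 3 as another the adjusted p was 0.092. Mmp24, a membrane-type MMP best known from neural tissue, rose 3.54-fold from 13 in each WT library to 50, 45 and 43 (adjusted p = 4.4e-06).

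The remaining membrane MMPs were low. Mmp17, which is anchored by glycosylphosphatidylinositol, was at 10, 16 and 18 in WT and 9, 8 and 9 in CSE-KO (adjusted p = 0.06). It had passed the filter through WT alone. Mmp23 was at 5, 9 and 12 against 12 in each CSE-KO library (adjusted p = 0.19). Mmp16 and Mmp25 were under the filter, with Mmp16 at 5, 7 and 4 beside 4, 3 and 2, and Mmp25 at 8, 8 and 7 beside 2, 1 and 3.

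Set against gene length, the make-up of the MMPs shifted while their sum differed by less than the spread between replicates. Normalized counts per exonic kilobase were summed over all MMP members and came to 536 ± 11.9 in WT and 546 ± 15.3 in CSE-KO (SD, n = 3). The sum of the secreted MMPs was 248 ± 10.2 and 394 ± 22.4, and that of the membrane MMPs was 288 ± 4.63 and 152 ± 10.2. Their ratio went from 0.861 ± 0.036 to 2.60 ± 0.296, without overlap of the libraries. Within the secreted sum, the chromosome 9 genes accounted for 16.2 ± 2.56 in WT and 278 ± 25.5 in CSE-KO, and the others for 232 ± 9.70 and 116 ± 3.11. Mmp2 was 51.7% of secreted MMP expression in WT and 13.5% in CSE-KO, and Mmp13 was 4.82% and 25.1%. These sums depend on the length used: with the median length of coding transcripts, a choice made after the data were seen, all MMPs came to 1045 ± 24.9 and 1021 ± 9.60, and in plain normalized counts to 2508 and 2140.

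**Figure D4:**
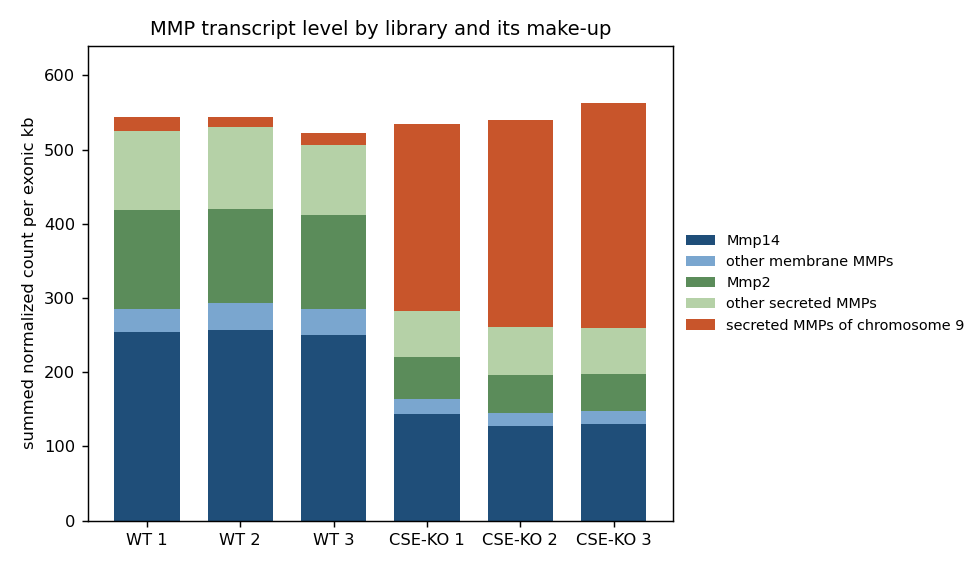
Normalized counts per exonic kilobase of MMP genes, stacked within each of the 6 libraries, bars starting at 0, with Mmp14, the other membrane MMPs, Mmp2, the other secreted MMPs and the chromosome 9 genes as segments. The totals lie between 523 and 563, the Mmp14 and Mmp2 segments are smaller in CSE-KO and the chromosome 9 segment is larger.

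Of the inhibitors, Timp1 rose and the others fell by smaller folds. Timp1, a soluble inhibitor of most secreted MMPs (X chromosome, 20870166 to 20874735, plus strand), had 333, 326 and 313 in WT and 555, 583 and 563 in CSE-KO. No library lay between the groups, and the rise was 1.75-fold (log2 change 0.81, adjusted p = 1.9e-08). Timp2, which takes part in Mmp2 activation, had 1522, 1523 and 1460 beside 1192, 1166 and 1245, a 1.25-fold fall (adjusted p = 1.9e-06). Timp3, the matrix-bound inhibitor that also blocks Adam17, had 1790, 1750 and 1787 beside 1525, 1508 and 1601, a 1.15-fold fall (adjusted p = 3.2e-05). Because Timp1 is short, its reads lie dense, at 365 per exonic kilobase in WT and 639 in CSE-KO. If reads with a shared start had been collapsed by the authors, the corrected log2 change would be 1.16. Summed per exonic kilobase, TIMP expression was 968 ± 19.8 in WT and 1136 ± 16.4 in CSE-KO, while the sum in plain normalized counts was lower in CSE-KO, at 3313 against 3601. The secreted MMP sum per TIMP sum was 0.256 in WT and 0.347 in CSE-KO, and that of membrane MMPs was 0.298 and 0.134.

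Among ADAMs, the shedding enzymes Adam10 and Adam17 fell by modest folds, and Adam3 and Adam32, known mainly from testis, rose by more than 4-fold at low values, with Adam32 passing the filter through CSE-KO alone. Adam10 sheds Notch receptors, cadherins and chemokines (chromosome 9, 70678997 to 70780229, plus strand). It had 1953, 1962 and 1912 in WT and 1276, 1189 and 1179 in CSE-KO. The groups were clearly apart, with a log2 change of -0.68 (adjusted p = 8.5e-09). Adam17, the converting enzyme of tumour necrosis factor, had 1226, 1223 and 1241 beside 829, 796 and 789, a 1.53-fold fall (adjusted p = 8.3e-09). Adam19, also called meltrin beta, had 877, 874 and 853 beside 530, 465 and 472, a 1.78-fold fall (adjusted p = 4.5e-08). Both of these showed no overlap between groups. Adam15, a disintegrin of endothelial cells, had 1221, 1238 and 1247 beside 1022, 990 and 1025, a 1.22-fold fall (adjusted p = 1.3e-06).

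Adam9, another surface sheddase, was the most abundant member of its class per exonic kilobase, at 422 in WT and 419 in CSE-KO. Its values of 1735, 1695 and 1783 overlapped those of CSE-KO at 1707, 1713 and 1749 (log2 change -0.01, SE 0.02, adjusted p = 0.67). With libraries scaled to equal totals the sign of Adam9 turned, with a log2 change of 0.06 and an adjusted p of 0.029. Adam12, meltrin alpha, was the abundant ADAM that rose, with 918, 975 and 938 in WT and 1489, 1546 and 1572 in CSE-KO. All CSE-KO libraries exceeded all WT libraries, and the rise was 1.63-fold (adjusted p = 6.2e-09). Adam8, a leukocyte ADAM, had 330, 346 and 337 beside 364, 430 and 395, a 1.17-fold rise (adjusted p = 0.0043). Counting WT as 1 sample ended this call.

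The ADAM genes at low values included sperm and brain ADAMs. Adam3, needed for sperm migration, had 16, 4 and 14 beside 55, 44 and 50, a 4.38-fold rise (adjusted p = 0.0026). Adam32, on the same part of chromosome 8, had 3, 7 and 4 beside 22, 30 and 24, a 5.43-fold rise (adjusted p = 6.7e-05). Adam3 and Adam32 lie on the minus strand with transcription starts 291 kb and 68.1 kb below that of Adam9, which did not pass. Adam5, which lies between them, was under the filter with 2, 7 and 2 in WT and 3, 1 and 6 in CSE-KO. Adam4 had 3, 8 and 9 beside 15, 16 and 17, a 2.40-fold rise (adjusted p = 0.0097). Adam11, a catalytically inactive ADAM of neurons, fell 3.86-fold from 18 in each WT library to 3, 5 and 6 (adjusted p = 0.00032). Adam1a rose 2.11-fold (adjusted p = 0.023), with 1 CSE-KO library at 11, the value of the highest WT library. Adam23 rose 1.89-fold from 4, 7 and 8 to 10, 11 and 15 (adjusted p = 0.04). Adam4, Adam23 and Adam32 had passed the filter through CSE-KO alone and Adam11 through WT alone, so their directions were fixed by it. The call of Adam1a was lost without any 1 of WT 1, WT 3, CSE-KO 2 and CSE-KO 3. That of Adam23 was lost without WT 1 (adjusted p = 0.11) and kept without WT 2 (adjusted p = 0.046) or WT 3, and without any 1 CSE-KO library it was under the filter. With the genes tested held fixed, a choice made after seeing the data, Adam23 also lost its call without WT 2, CSE-KO 2 or CSE-KO 3. Over all alternatives their adjusted p reached 0.27 and 0.17. Adam5, Adam18, Adam21, Adam22 and Adam33 were under the filter, with values between 0 and 7 in every library.

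Of 8 genes tested that work with Adam10 and Adam17, 2 rose and 6 fell, beside 38.3% higher and 39% lower over all genes tested. Tspan15, a tetraspanin that carries Adam10 to the surface, had 286, 316 and 302 in WT and 133, 125 and 127 in CSE-KO (adjusted p = 2.3e-08). Its relative Tspan14 fell by 0.86 on the log2 scale (adjusted p = 8.9e-09). Tspan5 fell by 0.68 (adjusted p = 1.2e-07). Rhbdf2, an inactive rhomboid that brings Adam17 to the surface, rose slightly (0.24, adjusted p = 0.00016), while its relative Rhbdf1 fell by 0.41. Of 16 shed substrates tested, 5 rose and 10 fell. Ereg and Hbegf, ligands of the epidermal growth factor receptor, rose by 1.75 and 1.04 on the log2 scale (adjusted p = 6.7e-11 and 2.7e-09). Cx3cl1, a membrane-bound chemokine, fell by 1.95 (adjusted p = 1.8e-09), and Notch1 fell by 0.46 (adjusted p = 9.1e-09). Vcam1 did not pass.

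Of the ADAMTS proteases, the hyalectanases Adamts1, Adamts4, Adamts5, Adamts9 and Adamts15, which cut versican and aggrecan, were lower in CSE-KO, beside 39% of all genes tested. Adamts15 had passed the filter through WT alone, so its direction was fixed by it. The endothelial and lymphatic markers described above were lower in the same libraries, and their part in the fall of the ADAMTS genes was not tested. Adamts1 (chromosome 16, 85793827 to 85803113, minus strand) had 1757, 1767 and 1816 in WT and 763, 753 and 745 in CSE-KO. The libraries of each group agreed closely, and the fall was 2.36-fold (adjusted p = 5.1e-11). Adamts4 had 1041, 1021 and 1048 beside 230, 125 and 103, a 6.79-fold fall (adjusted p = 0.0014). Adamts5 had 1156, 1260 and 1175 beside 207, 113 and 122, an 8.12-fold fall (adjusted p = 0.00037). Adamts9 had 564, 582 and 636 beside 103, 48 and 61, an 8.41-fold fall (adjusted p = 0.00046).

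In the genes Adamts4, Adamts5 and Adamts9, CSE-KO 1 was 1.5 times or more above the other CSE-KO libraries and still far under WT. Their log2 changes of -2.85, -3.07 and -3.14 became -3.19, -3.34 and -3.44 without CSE-KO 1. With WT as 1 sample and CSE-KO 2 and 3 as another, their adjusted p-values were 0.17, 0.10 and 0.076. Adamts15 had 18, 18 and 21 in WT and 1 in each CSE-KO library (adjusted p = 5.5e-06), and no fold is given at that level. Adamts1 and Adamts5 are neighbours on chromosome 16, both on the minus strand, with transcription starts 98.7 kb apart.

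Adamts12 and Adamts7, which cut cartilage oligomeric matrix protein, fell as well. Adamts12 had 280, 292 and 295 in WT and 57, 60 and 49 in CSE-KO, a 5.22-fold fall (adjusted p = 3e-09). Adamts7 had 939, 953 and 935 beside 376, 297 and 293, a 2.93-fold fall (adjusted p = 7.7e-06). Neither gene had a CSE-KO library near the WT range.

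Adamts10 and Adamts6, close relatives that act on fibrillin microfibrils, moved in opposite directions. Adamts10 had 451, 408 and 424 in WT and 159, 120 and 114 in CSE-KO, a 3.26-fold fall (adjusted p = 2.8e-06). Adamts6 (chromosome 13, 104287835 to 104496695, plus strand) had 50, 53 and 60 beside 538, 538 and 594. Every CSE-KO library of Adamts6 was far above WT, with means of 54.3 ± 5.13 and 557 ± 32.3, a 10.2-fold rise (adjusted p = 1.5e-10). It went from 0.734% of ADAMTS expression per exonic kilobase in WT to 20.3% in CSE-KO, and from rank 8 to rank 2 in the class, behind Adamts1 at 35.3% and 40.4%.

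The procollagen N-proteinases Adamts2 and Adamts14 rose by small folds at low values. Adamts2 had 29, 58 and 47 beside 63, 67 and 74, a 1.52-fold rise (adjusted p = 0.023), with WT 1 the lowest library. Adamts14 had 29, 26 and 42 beside 51, 42 and 44, a 1.41-fold rise (adjusted p = 0.033), and its groups met at 42. The call of Adamts2 was lost without any 1 of WT 1, CSE-KO 2 and CSE-KO 3, and that of Adamts14 without any 1 of WT 1, WT 2, CSE-KO 1 and CSE-KO 3. Over all alternatives their adjusted p reached 0.11 and 0.21. Summed per exonic kilobase, the ADAMTS class was 950 ± 11.3 in WT and 352 ± 31.0 in CSE-KO, with the libraries of the groups far apart.

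**Figure D5:**
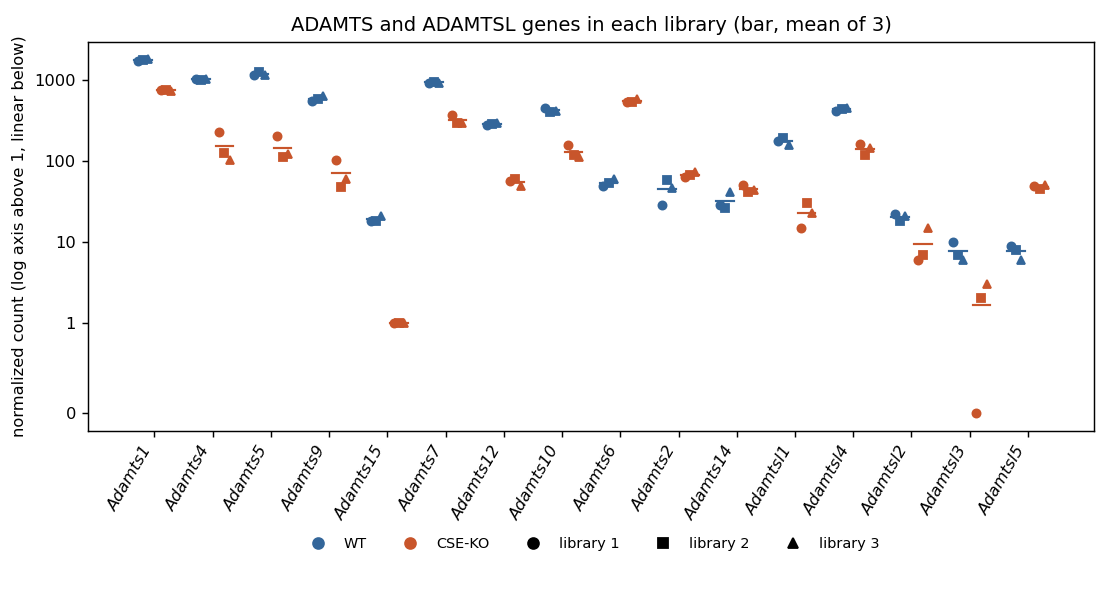
Normalized counts of ADAMTS and ADAMTS-like genes in each library (axis logarithmic above 1 and linear below), WT in blue and CSE-KO in orange, symbol shape giving the library and bars the group means. Most genes are lower in CSE-KO, Adamts6 is higher at 538 to 594, and CSE-KO 1 is the highest CSE-KO library in Adamts4, Adamts5 and Adamts9.

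ADAMTS-like proteins have no protease domain and bind matrix, and 3 of the 4 tested fell, beside 39% of all genes tested. Adamtsl1 (chromosome 4, 85514172 to 86428385, plus strand) had 180, 193 and 157 in WT and 15, 30 and 23 in CSE-KO, a 7.79-fold fall (adjusted p = 1.4e-06). Adamtsl4, a partner of fibrillin-1, had 417, 449 and 454 beside 162, 118 and 146, a 3.10-fold fall (adjusted p = 9.1e-07). Neither gene overlapped between groups. Adamtsl2 fell 2.18-fold from 22, 18 and 21 to 6, 7 and 15 (adjusted p = 0.0082), a call that ended with WT counted as 1 sample. Adamtsl5 rose 6.30-fold from 9, 8 and 6 to 49, 45 and 51 (adjusted p = 1.2e-06). Adamtsl5 had passed the filter through CSE-KO alone, so its direction was fixed by it. Adamtsl3 was under the filter, with 10, 7 and 6 beside 0, 2 and 3.

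Of 7 ADAMTS substrates tested, 1 rose, 4 fell and 2 did not pass, beside 38.3% higher and 39% lower over all genes tested. Of the 7, 1 that fell had passed the filter through WT alone. Vcan, the proteoglycan versican that the hyalectanases cut, rose from 348 ± 24.8 to 624 ± 53.3 (adjusted p = 5e-06). Fbn1, the microfibril protein fibrillin-1, fell from 2006 to 530, a log2 change of -1.93 (adjusted p = 2.1e-05). Reln, which is cut by ADAMTS enzymes and also marks lymphatic endothelium, fell by 2.60 (adjusted p = 0.00013).

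Enzymes that act upstream of the proteases changed as well. The 4 proprotein convertases tested, which cut the proforms of membrane MMPs, ADAMs and ADAMTS enzymes, fell, as did 39% of all genes tested. Pcsk6 went from a mean of 1921 to 502 (log2 change -1.99, adjusted p = 0.0018), Furin fell by 0.56 (adjusted p = 8.8e-07), Pcsk7 by 0.33 and Pcsk5 by 1.05 (adjusted p = 0.007). Of 6 genes of the plasmin system, which activates secreted MMP proforms, 4 rose and 2 fell. Over all genes tested the shares were 38.3% higher and 39% lower. Serpinb2, an inhibitor of plasminogen activators, rose 29.1-fold from 19.7 ± 2.08 to 571 ± 50.3 (adjusted p = 7.9e-11). Plaur, the urokinase receptor, rose by 0.37 on the log2 scale (adjusted p = 2.7e-07). Plau, urokinase, fell by 0.28 (adjusted p = 4.2e-06). Of the 2 MMP inhibitors or inducers tested, Bsg, an inducer, rose by 0.13 (adjusted p = 0.002). Reck, a membrane-anchored inhibitor, was at 274 ± 5.20 and 284 ± 18.6 and did not pass (adjusted p = 0.43). Of 4 related astacin proteases and enhancers, 2 rose and 2 fell, with Tll1, a procollagen C-proteinase, higher by 0.68 (adjusted p = 5.1e-09).

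CSE-KO 1 was the CSE-KO library nearest to WT in 15 of the 23 members that fell (65.2%, against 61.5% of all genes that fell). It was nearest in 14 of the 20 that rose (70.0%, against 54.6% of all genes that rose). The shares in members were thus of the order seen across the table for the falls and somewhat above it for the rises, with no test made.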

How the data were processed

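RNA from 3 WT and 3 CSE-KO libraries of mouse lung endothelial cells was made into stranded mRNA libraries from 300 ng and read as single ends of 75 bp, per the labels' protocols. Per the submitters' processing notes, which give no roles or order, the tools were DESeq2 1.26.0, featureCounts 1.6.5, Picard 2.21.7, STAR 2.7.3a and Trimmomatic 0.39 with build mm10. The table the authors deposited holds whole-number scores, read here as normalized counts that were rounded. No header or label names this unit, and it was inferred from the values: recomputed size factors were 1.003 to 1.008. Raw counts were not used here, so depth in reads is approximate and no count model was run. Whether counting used strand is not given in the sources used here, so reads of overlapping antisense genes, and of near-identical copies such as Adam1a and its relatives, are uncertain.

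Genes that reached 10 in 3 or more libraries were tested with limma 3.58.1 in R 4.3.3 on log2(value + 0.5), a linear model of group with mean trend and robust variances, two-sided, with Benjamini-Hochberg adjustment over all genes tested. The scale understates changes of low genes, and folds were left out where either mean was under 3. The model was tested on simulated data. All libraries were kept as separate samples in the main test, and counting those with an agreement index under 1 over all genes as 1 sample was an alternative. Exonic lengths came from GENCODE release 21 (18940 of 18956 genes matched, 18783 with the same coordinates, and all 55 members). Promoters came from RefSeq. The members, classes and gene lists were chosen with earlier results of these data known. Every member is accounted for: the 6 largest changes among the called, the 3 highest means in each class and members with a mean of at least 100 that did not pass have values per library, and up to 4 genes with the smallest adjusted p are named from each regulator or marker list, except that 1 gene the rule selects is not reported here. Other genes were named after their values were seen. These included the flanking genes of chromosome 9, Cdh5, Emcn, Cd14, Mrc1, Vcam1, Reck, Tspan5, Rhbdf1 and Rhbdf2. Alternatives covered scaling, filters, the pseudocount, the variance model, a minimum fold, a replicate block, single libraries left out, libraries merged and a correction for shared read starts.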

Additional observations from a re-analysis of the deposited data

How the results depend on the processing

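Of 1100 recomputed results for single members under 25 alternatives, 1042 kept their direction and their side of the threshold. Another 51 fell short of it, 3 newly passed and 4 changed sign. Of the 46 members, 31 held under every alternative in which they were tested. Some of these were under the filter in part of the alternatives. Mmp8, Mmp10 and Mmp12 were tested under 22 of the 25 and Mmp3 under 21. All 4 sign changes were in Adam9, at 0.06 with equal totals, 0.04 with upper-quartile scaling and 0.01 without WT 3 in either form (range -0.03 to 0.01 over single libraries left out); equal totals shifted the median of all genes to 0.077 and upper-quartile scaling to 0.053. The 3 new calls were of Mmp17. The count of members that rose was 20, and 10 with a minimum of 50, which left 31 members tested. Leaving out single libraries gave 9 to 19 members higher and 21 to 23 lower, and 9676 to 10167 genes in all; the lower counts come with fewer genes tested, since 3 libraries must reach the minimum. With the genes tested kept, a choice made after seeing the data, the counts were 16 to 19 higher and 23 to 24 lower. Of 10639 genes called, 6711 passed a test against a fold of 1.2, with 15 members higher and 20 lower. With a replicate block, 10440 genes, 20 members higher and 23 lower were called. The labels do not say whether the numbers pair the samples. Same-number correlations were -0.001, 0.02 and 0.011. They cannot decide this, because the spread between WT libraries over all genes was no larger than counting noise. The block stands here as an alternative only, and it changed no count by more than 1.5 times. Merging WT into 1 sample gave 16 and 22, and 8845 genes in all. Low values limit what could be seen in the 9 members under the filter and the size of the rises of Mmp3, Mmp8, Mmp10 and Mmp12, which moved with the pseudocount (Mmp12 from 5.75 to 8.89 over the alternatives).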
